A study of Mus musculus with 6 samples.

Results

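Expression of 10 neuropeptide receptor genes was followed across 3 groups of sorted retinal cells. They are Trhr, the receptor of thyrotropin-releasing hormone, Oxtr, the oxytocin receptor, the neuropeptide Y receptors Npy1r, Npy2r and Npy5r, the somatostatin receptor Sstr2, the substance P receptor Tacr1, the PACAP receptor Adcyap1r1, the VIP receptor Vipr1 and the nociceptin receptor Oprl1. They are 10 of 18193 genes that the arrays measured, and 19 probe sets map to one of them and to no other gene. The set is named after Trhr and Oxtr, which were chosen by their high levels on the Drd4 arrays, so their comparisons with Drd4 are described here without a test. The other 8 receptors were joined to them with results of these arrays known. All 10 are reported whatever they showed.

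RNA came from retinas of C57BL/6 mice at postnatal day 6, dissociated with papain and sorted by flow cytometry. The Hb9 and Drd4 groups are cells positive for both GFP and Thy1, named after the mouse line that supplied the GFP, and the Thy1 group is cells positive for Thy1, a surface protein of retinal ganglion cells. GFP is carried as a transgene under the Hb9 or the Drd4 promoter, so each GFP group is defined by where that transgene is active and not by the level of the native gene. Each group had 2 Affymetrix arrays, and the series text says that the replicates of a group were from separate litters. Each value is the log2 of the deposited probe set intensity, errors of group means are SD with n = 2 arrays, and errors of differences are standard errors from limma.

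These receptors are G protein-coupled proteins that answer short peptides released by other neurons or carried in the blood. Trhr, Oxtr and Tacr1 act mainly through Gq and phospholipase C, Adcyap1r1 and Vipr1 through Gs and adenylyl cyclase, and the Npy receptors, Sstr2 and Oprl1 through Gi. In the mouse retina, the Hb9 and Drd4 lines are both known for marking ganglion cells of the ON-OFF direction-selective class, and a transgenic line built on Trhr marks cells that prefer the same direction of motion as those of the Drd4 line. In sorted pools, a lower level can come from fewer cells of a type or from less RNA per cell, and these cannot be told apart.

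The leading probe set of a gene is its brightest on average, by mean log2 intensity over all 6 arrays. A background reference was taken on each array from the brightest of 27 Bacillus subtilis control probe sets, which match no mouse gene. It lay between 4.95 and 5.38 and was highest on the Hb9 arrays (5.38 and 5.25). The same value can therefore lie below it in Hb9 and above it in another group. Of the 10 leading probe sets, 4 exceeded it on all 6 arrays (Oxtr, Tacr1, Adcyap1r1 and Oprl1), 2 were at or below it on all 6 (Npy2r and Vipr1), and 4 exceeded it on some arrays (Trhr, Npy1r, Npy5r and Sstr2). A group is called at background below when its mean does not exceed the mean reference of its own arrays. A fold against such a group is a lower bound, computed on each of its arrays against the reference or the array's own value, whichever is higher.

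The start regions are shown of 3 members whose leading probe sets read higher on both Drd4 arrays than on every other array, by the values that follow. RefSeq promoter sequences of mouse build GRCm38.p6 matched 9 of the 10 members, and Trhr was not among them. The 250 bases before the gene start are given 5′ to 3′ on the gene's strand, for Oxtr at chr6:112489826-112490075 (minus strand), for Adcyap1r1 at chr6:55451728-55451977 (plus strand) and for Npy1r at chr8:66697172-66697421 (plus strand). Capitals mark matches to the E-box, CANNTG, or to the GC box, GGGCGG, each on either strand. 
Oxtr: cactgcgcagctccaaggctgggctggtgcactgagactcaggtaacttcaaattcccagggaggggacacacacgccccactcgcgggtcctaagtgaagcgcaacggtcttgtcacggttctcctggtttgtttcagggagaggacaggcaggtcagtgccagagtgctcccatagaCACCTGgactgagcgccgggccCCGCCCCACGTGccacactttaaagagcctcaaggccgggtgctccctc
Adcyap1r1: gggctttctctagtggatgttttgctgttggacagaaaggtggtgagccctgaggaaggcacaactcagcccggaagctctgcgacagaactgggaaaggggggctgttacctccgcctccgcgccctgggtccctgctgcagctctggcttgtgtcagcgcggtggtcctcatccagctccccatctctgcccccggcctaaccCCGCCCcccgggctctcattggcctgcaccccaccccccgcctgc
Npy1r: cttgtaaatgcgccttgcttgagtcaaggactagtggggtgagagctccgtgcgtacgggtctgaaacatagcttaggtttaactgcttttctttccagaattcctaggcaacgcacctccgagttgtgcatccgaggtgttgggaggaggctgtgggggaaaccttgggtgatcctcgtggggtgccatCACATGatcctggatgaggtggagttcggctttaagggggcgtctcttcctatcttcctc

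Oxtr held 2 E-box matches, CACCTG at position -71 and CACGTG at -43 from the gene start, and 1 GC box match at -49 that adjoins the second of them without overlap. Adcyap1r1 held a GC box at -45 and no E-box, and Npy1r an E-box, CACATG, at -60 and no GC box. Over 32851 mouse promoters of 300 bases, 50 of them after the start, 72.3% held an E-box and 35.7% a GC box, so neither match sets these genes apart. The full cyclic AMP response element, TGACGTCA, was found in 1.79% of those promoters, and among the members in Sstr2 alone, at -58. A match to letters is a description and not a shown binding site.

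Trhr was bright in Drd4 cells and at background in both other groups. Its leading probe set (1449571_at) read 10.02 and 9.61 on the Drd4 arrays, 4.84 and 5.22 on the Thy1 arrays, and 3.61 and 4.25 on the Hb9 arrays. The Drd4 values therefore lay far above every other array, and the Hb9 values were below both Thy1 values. The log2 difference was 4.79 ± 0.23 for Drd4 minus Thy1, the largest rise of all 18193 genes, a rank that follows from how Trhr was chosen. This rise was at least 24.8-fold against Thy1, a group at background. Against Hb9 the Drd4 mean was higher by 5.89 ± 0.23, at least 22.6-fold against the reference.

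Between Hb9 and Thy1, where Trhr can be tested, it was lower in Hb9 by 1.10 ± 0.23 (adjusted p = 0.0229 in limma, over all genes). Both group means were at background, so this is a difference among dim signals and no fold is given. It no longer passed when Hb9 replicate 1 (adjusted p = 0.181), Thy1 replicate 1 (0.0576) or Thy1 replicate 2 (0.0875) was left out, with an offset of 16 before log2 (0.0591) and with both probe sets averaged (0.0729), and it passed in 10 of 15 alternatives.

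The second probe set of Trhr (1449572_at) stayed at background on all 6 arrays, at 3.94 and 3.87 in Hb9, 4.26 and 4.21 in Drd4, and 3.83 and 3.75 in Thy1. Its Drd4 values were above those of both other groups, but by 0.44 ± 0.12 against Thy1 and 0.33 ± 0.12 against Hb9, all below the reference. The high level of Trhr in Drd4 thus rests on 1 of 2 probe sets.

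Oxtr, whose product responds to oxytocin, was also highest in Drd4. Its leading probe set (1440888_at) read 8.87 and 8.68 in Drd4, 5.98 and 5.82 in Thy1, and 5.42 and 5.59 in Hb9, above the reference on every array. The 3 groups did not overlap. Drd4 was higher than Thy1 by 2.87 ± 0.15 (7.32-fold, rank 6 from the highest of all genes) and higher than Hb9 by 3.27 ± 0.15 (9.65-fold). This rank too follows from the choice of Oxtr by its Drd4 level. Hb9 and Thy1 differed by -0.40 ± 0.15, which did not pass (adjusted p = 0.159 in limma, 95% interval -0.74 to -0.05). The second probe set (1426000_at) was above the reference only on the 2 Drd4 arrays, at 5.32 and 5.34, against 5.12 and 5.11 in Thy1 and 5.08 and 4.89 in Hb9. It differed by 0.22 ± 0.14 for Drd4 minus Thy1, so the size of the Oxtr difference also comes from 1 of 2 probe sets.

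**Figure D1:**
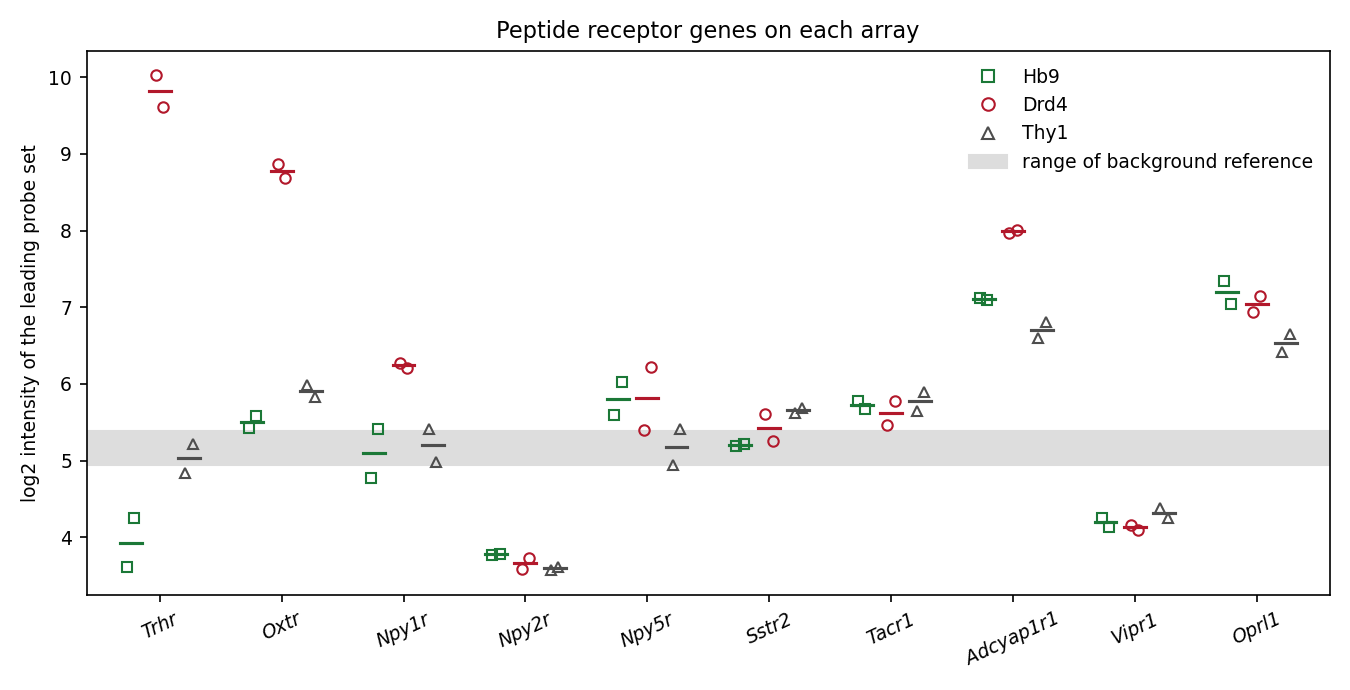
Log2 intensity of the leading probe set of each of the 10 receptor genes on each array, with Hb9 as squares, Drd4 as circles, Thy1 as triangles and bars for the means of 2 arrays; the grey band spans the background references of the 6 arrays, 4.95 to 5.38. Trhr at 10.02 and 9.61 and Oxtr at 8.87 and 8.68 stand out on the Drd4 arrays, and Npy2r and Vipr1 lie below the band on every array.

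Among the neuropeptide Y receptors, Npy1r rose in Drd4, Npy5r did not pass as fitted here, and Npy2r was not measured above background. These receptors are the targets of neuropeptide Y and of the related peptide YY. Npy1r (1421471_at) read 6.27 and 6.21 in Drd4, 5.41 and 4.98 in Thy1, and 4.77 and 5.41 in Hb9. Both Drd4 values were above all others, while Hb9 and Thy1 overlapped. Drd4 was higher than Thy1 by 1.04 ± 0.21 (2.06-fold, adjusted p = 0.0173 in limma) and higher than Hb9, a group at background, by 1.15 ± 0.21 (at least 1.80-fold, adjusted p = 0.0118 in limma). Leaving out Thy1 replicate 2 (adjusted p = 0.142) or averaging both probe sets (0.0564) ended the first call, and leaving out Hb9 replicate 1 (0.0913) the second. Hb9 minus Thy1 was -0.10 ± 0.21 (adjusted p = 0.824 in limma). The second probe set of Npy1r (1426054_at) did not pass, with 0.19 ± 0.17 for Drd4 minus Thy1 (adjusted p = 0.758 in limma). For Hb9 minus Drd4 it gave -0.37 ± 0.17 (0.256).

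Npy5r (1449312_at) read 5.59 and 6.02 in Hb9, 5.40 and 6.22 in Drd4, and 4.95 and 5.41 in Thy1. Its Drd4 arrays were the most unequal pair of any leading probe set here, and Drd4 overlapped Thy1. Each GFP group differed from Thy1 by 0.63 ± 0.26 and neither difference passed (adjusted p = 0.19 for Hb9 and 0.296 for Drd4 in limma). Without Drd4 replicate 1 the difference from Thy1 was 1.04 and passed (adjusted p = 0.0195), and with the replicate number as a block both did (0.0402 for Hb9 and 0.0401 for Drd4). The second probe set (1419008_at) gave differences of 0.0030 for Hb9 minus Thy1 and -0.0002 for Drd4 minus Thy1, each ± 0.20. Npy5r starts on chromosome 8 next to Npy1r and on the opposite strand. Npy2r, with a single probe set, lay between 3.57 and 3.79 on all 6 arrays, below every reference, and was not well above background in any group.

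Adcyap1r1, which binds PACAP, a peptide used by some retinal ganglion cells that project to the brain's clock, was above background in every group and highest in Drd4. Its leading probe set (1429022_at) read 7.97 and 8.01 in Drd4, 7.12 and 7.10 in Hb9, and 6.60 and 6.81 in Thy1, and the 3 groups did not overlap. Drd4 was higher than Thy1 by 1.28 ± 0.15 (2.44-fold, adjusted p = 0.000723 in limma), a call that passed in 15 of 15 alternatives. It was higher than Hb9 by 0.88 ± 0.15 (1.84-fold, adjusted p = 0.00789 in limma), which was lost without Hb9 replicate 1 (0.0640) or 2 (0.0606). Hb9 minus Thy1 was 0.40 ± 0.15 and did not pass (adjusted p = 0.148 in limma). A second probe set (1450799_at) was also above the reference on all arrays, at 6.10 to 6.26, yet gave 0.02 ± 0.14 for Drd4 minus Thy1 (adjusted p = 0.986 in limma). The third (1439042_at) was below the reference on all arrays and did not pass (adjusted p = 0.25 in limma for Drd4 minus Thy1). Both Adcyap1r1 calls thus rest on the leading probe set alone. With each probe set as its own row, only the leading one was read for the count of alternatives. Vipr1, the receptor of vasoactive intestinal peptide in the same family, stayed between 3.88 and 4.38 over both of its probe sets, below the reference on all arrays.

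Oprl1, the nociceptin receptor, was the member that rose in Hb9. Its leading probe set (1426204_a_at) read 7.35 and 7.04 in Hb9, 6.94 and 7.14 in Drd4, and 6.41 and 6.64 in Thy1. Both GFP groups lay above Thy1 and overlapped each other. Hb9 was higher than Thy1 by 0.66 ± 0.17 (1.58-fold, adjusted p = 0.0494 in limma), close to the threshold of 0.05. This call was lost in 7 of 15 alternatives, namely without Hb9 replicate 1 (0.327) or 2 (0.0798), without Thy1 replicate 1 (0.299) or 2 (0.0582), after quantile normalisation (0.0592), with the replicate number as a block (0.0644) and with the mean of its probe sets (0.549). The Drd4 difference from Thy1 of 0.51 ± 0.17 did not pass (adjusted p = 0.164 in limma), nor did Hb9 minus Drd4, at 0.15 ± 0.17 (0.694). The other probe sets of Oprl1 (1450486_a_at and 1422099_a_at) differed by -0.05 ± 0.15 and -0.21 ± 0.17 for Hb9 minus Thy1.

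Sstr2 and Tacr1 passed in no comparison. Sstr2, a receptor of somatostatin, read 5.62 and 5.69 in Thy1, 5.61 and 5.25 in Drd4, and 5.19 and 5.21 in Hb9, where it was at background. These Hb9 values were below the Hb9 references but above those of Thy1 (5.16 and 5.12). Hb9 minus Thy1 was -0.45 ± 0.15 (adjusted p = 0.102 in limma), and the Drd4 arrays lay between both groups. Tacr1 was above the reference on all arrays, at 5.78 and 5.68 in Hb9, 5.47 and 5.78 in Drd4, and 5.65 and 5.90 in Thy1, with all groups overlapping. The 95% interval of Drd4 minus Thy1 ran from -0.50 to 0.21 for Tacr1, so differences inside it could not be told from 0 with 2 arrays a group.

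**Figure D2:**
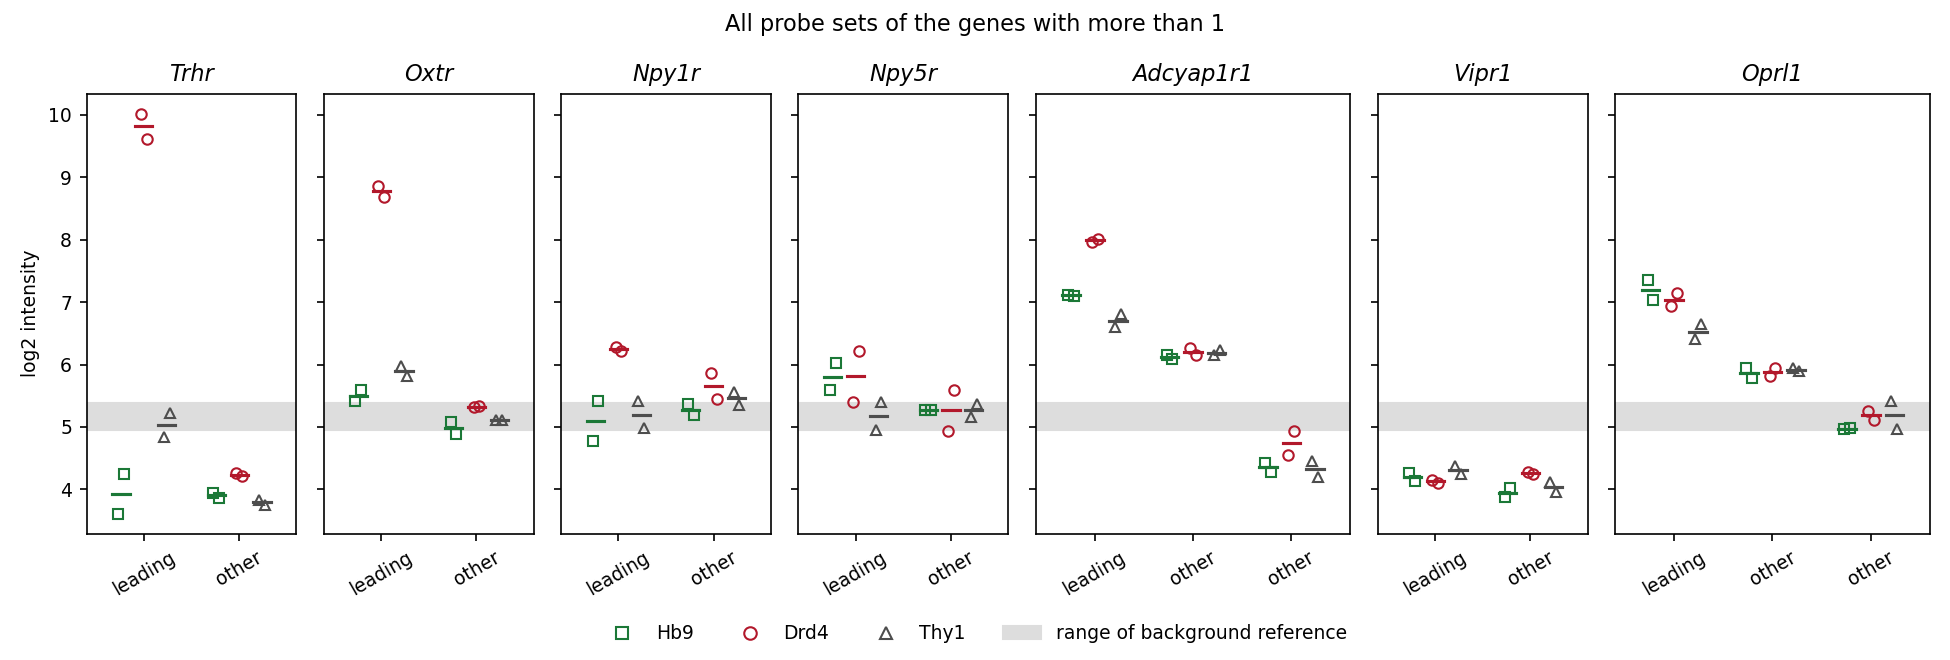
Log2 intensity of every probe set of the 7 receptor genes with more than 1, by array, with the leading probe set first in each panel, group means as bars and the range of background references as a grey band. The second probe set of Trhr stays at 3.75 to 4.26. In Drd4 minus Thy1, other probe sets give 0.22 in Oxtr, 0.19 in Npy1r, -0.0002 in Npy5r, and 0.02 and 0.42 in Adcyap1r1. In Oprl1 the others give -0.05 and -0.21 for Hb9 minus Thy1, where the leading probe set rose.

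Counted over the members, Hb9 minus Thy1 gave 1 called higher (Oprl1) and 1 lower (Trhr) of 10 tested, where 6.71% of all 18193 genes were called, 3.52% higher and 3.19% lower. Drd4 minus Thy1 gave 2 higher (Npy1r and Adcyap1r1) and 0 lower of 8 tested, against 5.47% of all genes, 1.51% higher and 3.96% lower. Hb9 minus Drd4 gave 0 higher and 2 lower, the same 2 genes, of 8 tested, against 6.12% of all genes, 4.06% higher and 2.06% lower. Called here means an adjusted p under 0.05 over all genes. Each call among these 8 in the comparisons with Drd4 was on the side of a higher Drd4 level. Among the members tested in each comparison, the groups did not overlap for 7 of 10, 5 of 8 and 4 of 8, and neither did they for 54.2%, 41.1% and 49.7% of all genes. The median difference of the members tested was -0.07, 0.29 and 0.03, against 0.04, 0.02 and 0.04 over all genes. At an unadjusted p under 0.05 in limma, 3 of 10 were higher and 3 lower in Hb9 minus Thy1 (15.3% and 7.81% of all genes), 4 of 8 and 0 in Drd4 minus Thy1 (6.28% and 8.27%), and 0 and 2 of 8 in Hb9 minus Drd4 (13.5% and 6.27%). The first 2 comparisons share the Thy1 arrays, the last 2 the Drd4 arrays, and the first and last the Hb9 arrays, so the same genes can pass in both. Of the calls over all genes in Hb9 minus Thy1, 52.5% were higher, against 44.1% after quantile normalisation and 61.4% after median centring.

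**Figure D3:**
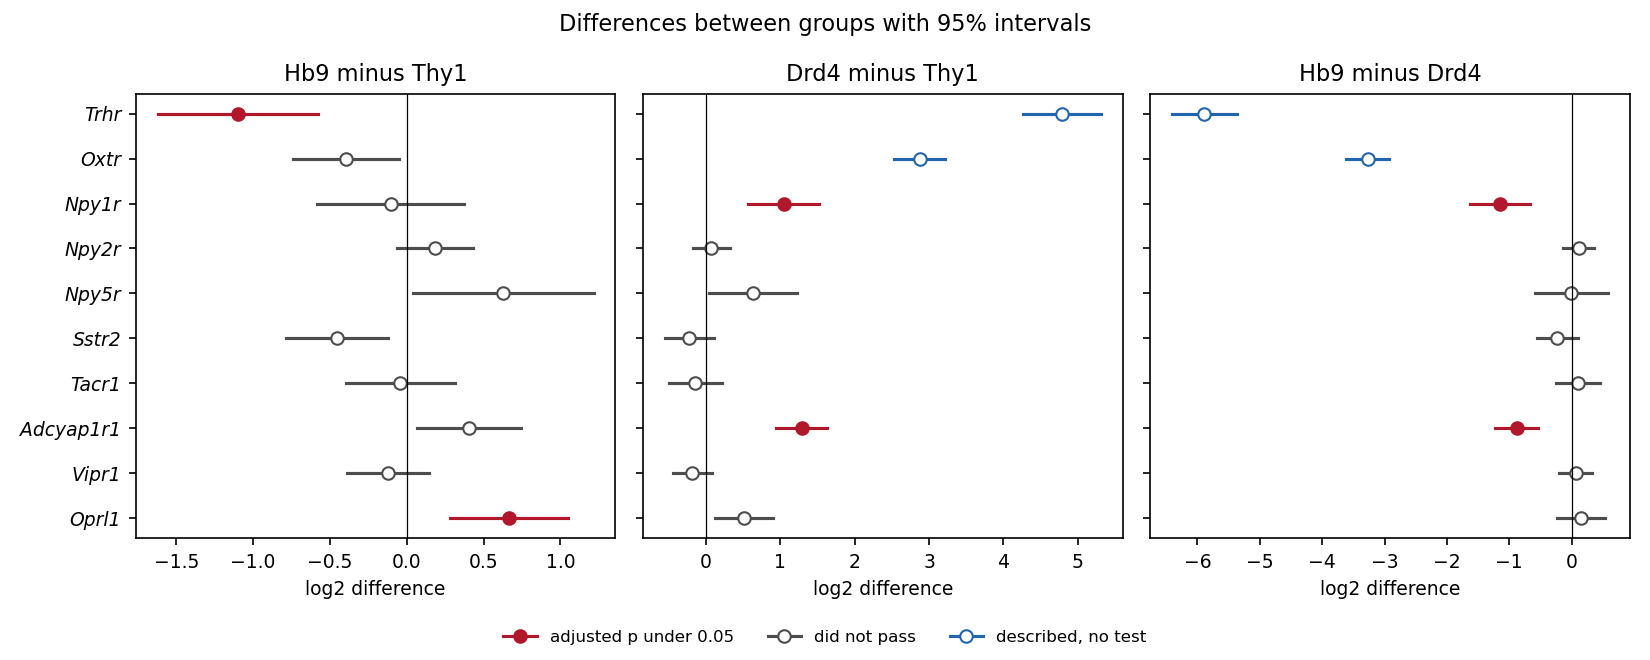
Log2 differences of the 10 receptor genes (points) with 95% intervals from limma (lines), for Hb9 minus Thy1, Drd4 minus Thy1 and Hb9 minus Drd4, each panel on its own scale. Filled red points passed at an adjusted p under 0.05, and blue points were not tested. The lines of blue points show the spread only and are not a test against 0. Trhr and Oxtr reach 4.79 and 2.87 in Drd4 minus Thy1, and the other members lie between -0.22 and 1.28 there.

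Genes with a pattern like that of a member were sought by the Euclidean distance between log2 profiles over the 6 arrays, each centred on its own mean. Nearest to Trhr were Neurod6, a neuronal transcription factor (distance 2.11), Oxtr itself (2.76) and the collagen gene Col24a1 (2.95). The range of Trhr over the arrays, 6.41, was wider than theirs. Oxtr was chosen, as Trhr was, by a high Drd4 level, so its place near Trhr follows from that choice. Nearest to Oxtr were Col24a1 (0.33), Kctd4 (0.54) and the potassium channel gene Kcna5 (0.59). For Npy1r they were Mpp7, Slc35f4 and Trim16 (0.37, 0.37 and 0.41), for Adcyap1r1 Fam189a2, the Wnt receptor gene Fzd1 and Rasgef1a (0.21, 0.30 and 0.37), and for Oprl1 Rasgrp2, Slf1 and Fastkd1 (0.11, 0.14 and 0.15). These distances rest on 6 arrays and grow with the size of a member's own differences. Among the genes nearest to Trhr and Oxtr, Neurod6, Col24a1 and Kcna5 were at background in Hb9 and Thy1. Their means there were 2.76 and 3.02, 4.37 and 4.51, and 4.17 and 4.53, so that part of their profiles is dim signal.

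**Figure D4:**
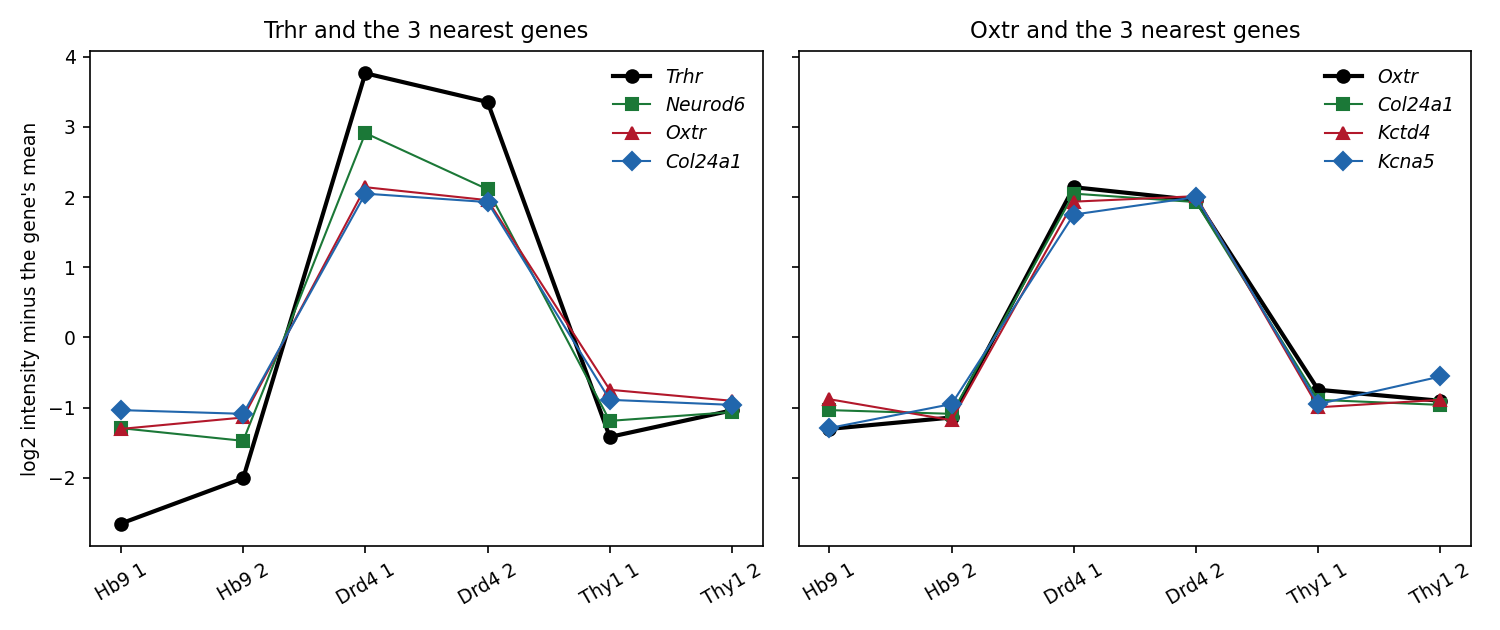
Log2 intensity minus the gene's own mean on each of the 6 arrays, for Trhr (left, black) and Oxtr (right, black) and the 3 genes nearest to each; lines only join the points of a gene. All profiles are highest on both Drd4 arrays, and Trhr spans 6.41 on this scale against 3.44 for Oxtr.

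Of 65 further peptide receptor genes, 58 were measured, and 3, 4 and 5 passed in the 3 comparisons, shares near those of all genes. In Hb9 minus Thy1, 2 rose and 1 fell, in Drd4 minus Thy1, 2 rose and 2 fell, and in Hb9 minus Drd4, 3 were higher and 2 lower, with list medians of -0.02, 0.02 and -0.05. Higher in Hb9 than Thy1 were Pth2r, a receptor of the parathyroid hormone family (1.55 ± 0.16, at least 2.14-fold, adjusted p = 0.000973 in limma), and Prokr1, a prokineticin receptor (1.32 ± 0.13, 2.50-fold, 0.00062). Pth2r was at background in both other groups, and Prokr1 at background in Drd4. Higher in Drd4 than Thy1 were the somatostatin receptor Sstr4 (8.13 and 8.14 against 6.97 and 6.58, a difference of 1.36 ± 0.17, adjusted p = 0.000976 in limma) and Gipr, a receptor of a gut hormone (0.69 ± 0.17, at least 1.32-fold, 0.0412). The Gipr call was lost in 7 of 14 alternatives, among them without Drd4 replicate 2 (adjusted p = 0.208), without Thy1 replicate 1 (0.160) or 2 (0.181) and without either Hb9 replicate (0.0574 each).

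Calcrl, the receptor of the calcitonin family that vessels use for adrenomedullin, fell in both lines, by 1.11 ± 0.15 in Hb9 (adjusted p = 0.00272 in limma) and by 2.55 ± 0.15 in Drd4 (at least 3.03-fold, 1.46e-05). Prokr1 fell in Drd4 by 0.88 ± 0.13 (at least 1.08-fold, adjusted p = 0.00232 in limma), and between the lines it was higher in Hb9 by 2.20 ± 0.13, at least 2.71-fold, as were Pth2r (1.95 ± 0.16, at least 2.24-fold) and Calcrl (1.44 ± 0.15, at least 1.40-fold). Only 1 of 3 probe sets passed for Calcrl in each comparison, and 1 of 2 for Prokr1 and Sstr4. With all probe sets of a gene averaged, calls were lost for Calcrl in Hb9 minus Thy1 (adjusted p = 0.0834), Prokr1 in Drd4 minus Thy1 (0.0610) and Sstr4 in Hb9 minus Drd4 (0.0758).

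The ligand genes of these receptors were 14, of which Npy and Tac1 changed. Npy, the ligand of the Npy receptors, was high in Hb9, at 9.11 and 8.31, against 5.96 and 5.76 in Thy1 and 5.35 and 5.43 in Drd4. The Hb9 level exceeded that of Thy1 by 2.85 ± 0.23 (7.21-fold, adjusted p = 0.000323 in limma) and that of Drd4 by 3.32 ± 0.23 (9.99-fold, 3.51e-05). Npy1r was higher in the line with the lower Npy level, and the relation between the 2 genes was not tested. Tac1, the precursor of substance P, was low in Drd4, at 8.84 and 7.98, against 10.61 and 10.41 in Thy1 and 10.03 and 10.48 in Hb9. Drd4 fell below Thy1 by 2.10 ± 0.26 (adjusted p = 0.000841 in limma) and below Hb9 by 1.85 ± 0.26 (0.00217), each on 1 of 2 probe sets. Trh, the ligand of Trhr, was at background in all 3 groups, with means of 4.80, 4.79 and 4.95 in Hb9, Drd4 and Thy1. Oxt, the oxytocin gene, was above background at 7.70, 7.78 and 7.96, and Adcyap1, the PACAP gene, at 7.60, 7.76 and 7.46, and neither passed in any comparison. Counts for the list were 1 higher and 0 lower in Hb9 minus Thy1, 0 and 1 in Drd4 minus Thy1, and 2 and 0 in Hb9 minus Drd4, and its medians were -0.03, -0.15 and 0.06.

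**Figure D5:**
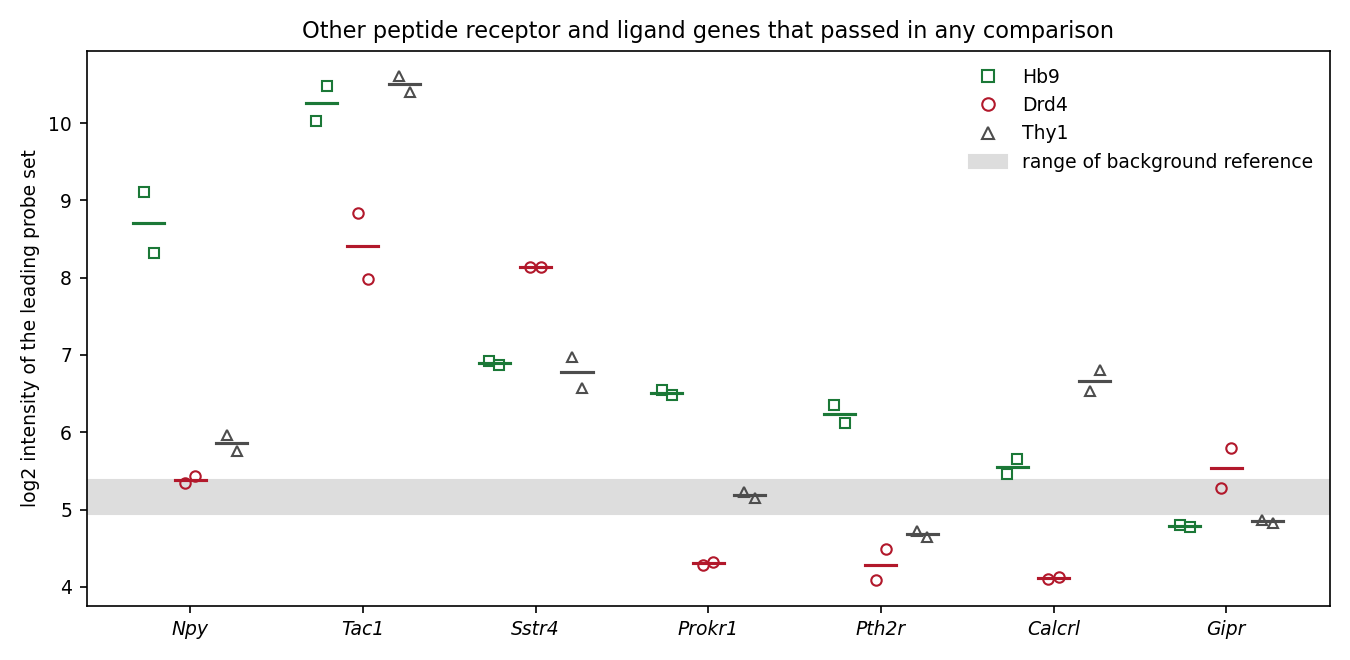
Log2 intensity of the leading probe set on each array for the 2 ligand genes and the 5 further receptor genes that passed in any comparison, with group means as bars and the range of background references as a grey band. Npy reads 9.11 and 8.31 in Hb9, Sstr4 8.13 and 8.14 in Drd4, and Calcrl is highest in Thy1.

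Signalling genes downstream of the receptors were counted in 4 lists. Among 13 G protein alpha subunits, 0 passed in Hb9 minus Thy1 in limma, with 1 higher and 2 lower at an unadjusted p under 0.05, and 1, Gnai1, fell in Drd4, by 0.53 ± 0.13 (adjusted p = 0.0436 in limma). Gnai1 passed in 3 of 14 alternatives and was lost without any 1 array, with adjusted p from 0.0575 without Hb9 replicate 2 to 0.161 without Thy1 replicate 2. It was also higher in Hb9 than in Drd4 (0.59 ± 0.13, adjusted p = 0.0273 in limma), except when Hb9 replicate 1 (0.292) or Drd4 replicate 1 (0.110) or 2 (0.0594) was dropped or its probe sets were averaged (0.448). The 3 probe sets of Gnai1 ran from -0.47 to 0.59 in Hb9 minus Drd4. In Hb9 minus Thy1 they ran from -0.77 to 0.18, and 1 was called lower with each probe set as its own row. Among 10 measured genes of the Gq pathway, Plcb1, a phospholipase C, rose in Hb9 by 0.64 ± 0.16 (adjusted p = 0.0388 in limma) and in Drd4 by 0.79 ± 0.16 (0.0147). Leaving out either Hb9 array (0.200 and 0.157) or either Thy1 array (0.207 and 0.0610) ended the Hb9 call, and leaving out Drd4 replicate 1 (0.0979) or Thy1 replicate 1 (0.0839) the Drd4 call. Of its 5 probe sets, 1 was called higher in Hb9 and 1 lower, and averaged over them the Plcb1 difference in Hb9 turned to -0.09 and both calls were lost (0.712 and 0.268).

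In the adenylyl cyclase list of 15 genes, Adcy7 fell in Hb9 by 0.87 ± 0.22 (adjusted p = 0.0435 in limma) and Adcy8 rose in Drd4 by 1.34 ± 0.15 (at least 1.08-fold, 0.000449). The Adcy7 call was lost without either Hb9 replicate (0.168 and 0.165) or Thy1 replicate 1 (0.297), and with the mean of its probe sets (0.0877). In Hb9 minus Drd4, Adcy2 was higher (0.97 ± 0.15) and Adcy7 and Adcy8 lower (-1.37 ± 0.22 and -1.42 ± 0.15). The Drd4 mean of Adcy8, 5.24, lay below the background reference of Hb9, where the gene was at background (mean 3.83), so no fold is given. In this comparison Adcy2 did not pass once Hb9 replicate 1 was dropped (adjusted p = 0.0520 in limma). Among 21 receptor kinase, arrestin and RGS genes, which end receptor signals, Rgs2 (0.87 ± 0.18) and Rgs20 (0.83 ± 0.20) rose in Hb9, while in Drd4 Rgs6 rose (0.93 ± 0.15) and Rgs10 fell (-0.88 ± 0.14). Both calls in Hb9 failed with probe sets averaged (adjusted p = 0.240 and 0.394), Rgs2 also when any Hb9 array (0.112 and 0.0998) or Thy1 array (0.104 and 0.0512) was dropped, and Rgs20 when Hb9 replicate 2 (0.177) or a Thy1 array (0.232 and 0.0504) was dropped. Between the lines, 3 of this list were higher in Hb9 and 1 lower, led by Rgs20 (1.60 ± 0.20), Rgs6 (-1.34 ± 0.15) and Rgs10 (0.70 ± 0.14). The Rgs20 call came from 1 of 3 probe sets and was lost with its probe sets averaged (adjusted p = 0.0582 in limma). The Rgs10 call between the lines was lost without Hb9 replicate 1 (0.0675) or 2 (0.143) or Drd4 replicate 1 (0.0575).

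Of 11 measured peptide-cleaving enzymes, Enpep, an aminopeptidase, fell in Hb9 by 1.78 ± 0.16 (at least 2.98-fold, adjusted p = 0.000452 in limma) and in Drd4 by 2.68 ± 0.16 (at least 3.53-fold, 1.65e-05). Enpep was at background in both GFP groups. Nln, the endopeptidase neurolysin, rose in Drd4 by 0.61 ± 0.15 (adjusted p = 0.0466 in limma), a call that passed in 4 of 14 alternatives and was lost without any 1 array, with adjusted p from 0.0559 without Thy1 replicate 1 to 0.231 without Thy1 replicate 2. In Hb9 minus Drd4, Enpep alone passed (0.90 ± 0.16), with both groups at background, and it did not pass once Hb9 replicate 1 was dropped (adjusted p = 0.0748).

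Across the whole array set, 68.2% to 78.9% of genes exceeded the reference per array, and log2 intensities of replicate arrays correlated at 0.988 to 0.992 across genes, which are not independent replicates. Of 12 measured ganglion cell markers, 11 were above the reference on all 6 arrays, 1 rose in Hb9, and 3 rose and 1 fell in Drd4 against Thy1. Without one array these ran from 0 to 1 higher in Hb9 (0 without Hb9 replicate 1, Thy1 replicate 1 or Thy1 replicate 2) and from 1 to 3 in Drd4 (1 without Drd4 replicate 2 or Thy1 replicate 1). Several marker lists of other cells were lower in the GFP groups than in Thy1, as were Calcrl and Enpep in both lines and Trhr in Hb9. Of 13 microglial markers, 11 were lower in Hb9 and 11 in Drd4 than in Thy1, with summed intensities of 1674 and 2045 in Hb9, 2981 and 1092 in Drd4, and 11325 and 6556 in Thy1. Of 13 pericyte and endothelial markers, 5 and 6 were lower, with sums of 2107 and 1720, 1307 and 435, and 8060 and 8988. With each array left out, these counts ran from 6 to 12 and 8 to 12 for microglial markers and from 2 to 7 and 5 to 6 for the second list, lowest in Hb9 without Thy1 replicate 1 (6 and 2). Of 9 dividing cell markers, 4 and 5 were lower, and of 10 immediate-early genes, 4 and 5. None of the dividing cell markers exceeded the reference on all 6 arrays, and 1 to 3 did on each GFP array. Of 12 Muller glia and progenitor markers, 2 and 2 were lower with 1 higher in Drd4, and of 6 horizontal cell markers, 1 and 3 were lower. Summed intensities of the horizontal cell list were not lower in Hb9, at 899 and 657, against 574 and 613 in Thy1 and 225 and 295 in Drd4. At an unadjusted p under 0.05 in limma, 1 of that list was higher in Hb9 than in Thy1 and 2 lower. With each array left out, the dividing cell counts ran from 1 to 6 in Hb9 and 5 to 6 in Drd4, and the immediate-early counts from 0 to 5 and 3 to 5. Of 11 amacrine markers, 1 was higher in each line (Pax6, which ganglion cells also express) and 5 were at background on all arrays. Of 9 rod and cone markers 0 passed in limma in either line (0 in Hb9 and 1 in Drd4 at an unadjusted p under 0.05). Of 5 bipolar and 5 astrocyte markers 0 passed in Hb9, also unadjusted, and 1 in each list was lower in Drd4. The bipolar marker lower in Drd4 was Isl1, which is also in the ganglion cell list and is the 1 that fell there. The part of other cells in the results was not tested.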

How the data were processed

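The deposited table holds probe set intensities on a linear scale for 6 arrays, and the authors' software, background correction and normalisation are not given in the labels or headers used here. Per the labels' protocols, RNA was isolated with a PicoPure kit and amplified in 2 rounds before biotin labelling. Of 45101 probe sets, 34945 map to 1 gene by the platform annotation, and 34741 of these matched the RefSeq gene table by Entrez identifier, with 0 symbols changed. The 64 controls, 932 probe sets of several genes and 9160 without a gene were left out. No value was at or below 0.

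Log2 intensities of the leading probe set of 18193 genes were fitted with limma 3.58.1 in R 4.3.3, with 3 group means, 3 residual degrees of freedom and a moderated variance with intensity trend (prior 6.98 degrees of freedom). Tests were two-sided with Benjamini-Hochberg adjustment over all genes at 0.05. The procedure was tested on simulated data. The number of arrays, 2 a group, limits the precision (median standard error 0.15), and an exact permutation test could not go below 0.333, so none was used.

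The members, the 7 pathway lists and the 11 marker lists were chosen with earlier results of these data known. All members are named. From each pathway list the genes past the threshold are named, or the 3 with the largest difference where more than 3 passed, and for Trhr, Oxtr and each member that passed, the 3 nearest profiles, passing over clone and model names. Alternatives were quantile normalisation, median centring, all probe sets of a gene averaged, each probe set as its own row, dim genes left out, an offset of 16, no intensity trend, the replicate number as a block, only the compared groups in the fit, and each array left out in turn. For genes of the pathway lists, the 14 alternatives counted leave out each probe set as its own row. In that fit the Drd4 minus Thy1 calls of Gipr, Nln and Gnai1 were lost as well. The labels do not say that a replicate number marks a shared litter.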

Additional observations from a re-analysis of the deposited data

Results flagged for a closer look

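The groups moved apart in 4 members. The leading probe set of Trhr was lower in Hb9 than in Thy1 (log2 difference -1.10), with both group means at background. Both Drd4 arrays lay above every Thy1 array. The second Trhr probe set, at background throughout, was not lower in Hb9 (0.11 ± 0.12, adjusted p = 0.645 in limma). Oxtr had the same order of groups in its leading probe set, with a smaller Hb9 difference of -0.40, which did not pass. For these genes the difference between the lines was not tested, because they were chosen by their Drd4 levels. Npy1r differed between the lines by -1.15 for Hb9 minus Drd4 and Adcyap1r1 by -0.88, and in limma both differences passed, at adjusted p = 0.0118 and 0.00789. Both calls rest on the leading probe set. The other probe sets did not pass there (-0.37 for Npy1r, -0.08 and -0.39 for Adcyap1r1). Each call was also lost with an Hb9 array left out, as given above.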

How the results depend on the processing

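No member turned its sign under the alternatives run in a comparison where it was called. The number of members called in Hb9 minus Thy1, 2 as reported, was 1 after quantile normalisation, 0 with all probe sets of a gene averaged, 1 with an offset of 16, and 0 to 2 with each array left out. Of the 8 tested against Drd4, 2 were called in Drd4 minus Thy1 and 2 in Hb9 minus Drd4. These counts ran from 1 to 3 (lowest without Thy1 replicate 2) and from 0 to 2 (0 without Hb9 replicate 1, 1 without Hb9 replicate 2) with each array left out, and the first was 1 with probe sets averaged. Over all genes, calls in Hb9 minus Thy1 were 315 to 1633 with each array left out (1220 as reported, 315 and 441 when Hb9 replicates 1 and 2 were dropped, 380 when Thy1 replicate 1 was) and 2076 with each probe set as its own row. In Hb9 minus Drd4 they were 411 to 1244 (1113 as reported, 411 and 532 when Hb9 replicates 1 and 2 were dropped, 689 when Drd4 replicate 1 was) and 2001 with each probe set as its own row. With probe sets averaged, Drd4 minus Thy1 was 2.62 for Trhr and 1.54 for Oxtr, and Hb9 minus Drd4 was -3.11 and -1.81. With the offset these were 4.24, 2.58, -4.87 and -2.89. With the replicate number as a block, 2 of 10, 3 of 8 and 2 of 8 members and 1156, 985 and 1030 genes were called in Hb9 minus Thy1, Drd4 minus Thy1 and Hb9 minus Drd4. The deviations of same-numbered arrays correlated at -0.28 for Hb9 with Drd4, -0.19 for Hb9 with Thy1 and 0.37 for Drd4 with Thy1, so the numbers are not shown to pair the arrays. Over the tested members, comparisons and alternatives, 347 values kept their sign and side of the threshold, 17 lost a call, 3 gained one (all Npy5r) and 17 that did not pass turned their sign. These turns were in Tacr1 and Npy5r after quantile normalisation (0.0021 in Hb9 minus Thy1 and 0.018 in Hb9 minus Drd4) and median centring (0.0060 and 0.021), and with probe sets averaged in Vipr1 (0.022 in Drd4 minus Thy1, -0.13 in Hb9 minus Drd4) and Oprl1 (-0.023 in Hb9 minus Drd4). The others came with an array left out, over which Hb9 minus Thy1 ran from -0.42 to 0.21 in Npy1r and -0.17 to 0.084 in Tacr1, Drd4 minus Thy1 from -0.0026 to 0.14 in Npy2r and -0.30 to 0.011 in Tacr1, and Hb9 minus Drd4 from -0.41 to 0.40 in Npy5r, -0.054 to 0.26 in Tacr1 and -0.0015 to 0.31 in Oprl1. Of the untested values of Trhr and Oxtr against Drd4, 8 moved by more than 1 SD, those with averaging and with the offset given above. Under the block, Npy5r was called higher than Thy1 in Hb9 (adjusted p = 0.0402 in limma) and Drd4 (0.0401). Leaving out an array that leaves a group with 1 assumes that it varies like the other groups. Npy2r and Vipr1 stayed below the background reference, which limits what can be said of them.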

Other observations

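Trhde, the ectoenzyme that degrades thyrotropin-releasing hormone, was looked up after its values were seen, because it acts on the ligand of Trhr. Its mean log2 intensity was 7.05 in Drd4, 6.49 in Hb9 and 6.25 in Thy1. Drd4 exceeded Thy1 by 0.80 ± 0.23, and the difference did not pass (adjusted p = 0.0867 in limma). Trhr2, the second receptor gene of the hormone, was above background in each group (mean 5.91 in Hb9, 6.02 in Drd4, 5.96 in Thy1) and passed in no comparison.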
